A study of Mus musculus with 8 samples.

Results

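Peg10 and Zim1 are imprinted genes of the mouse, each expressed mainly from 1 parental copy, and their m6A-eCLIP sites were followed one by one and as sums in αTC1-6 cells after knockdown of Mettl14. The sites are those of the count table that lie inside the RefSeq spans of the genes on the mm10 (GRCm38.p6) genome. Peg10 (gene ID 170676, chr6:4747306-4760517) held 61 sites and Zim1 (gene ID 22776, chr7:6674444-6696540) held 44, which makes 105 of 33774 sites and 2 of 6531 genes with a named site. The genes were chosen by the site counts of the IP libraries, in which sites of both differed between M14KD and SCR. That contrast is therefore described with its values and is not tested for these genes.

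The αTC1-6 line is a clonal alpha cell line from a tumour of a mouse that carried SV40 T antigen under the glucagon promoter, so all groups share 1 transformed background. Cells received an siRNA against Mettl14 (M14KD) or a scramble siRNA (SCR), and from each an antibody library (IP) and an Input library were made. In the IP libraries an antibody against N6-methyladenosine (m6A) was crosslinked to RNA with ultraviolet light, and counts are given at single bases of the genome. The 4 groups were IP M14KD, IP SCR, Input M14KD and Input SCR, with 2 libraries each, where M14KD has the replicate numbers 3 and 4 and SCR has 1 and 2.

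Mettl14 is the partner of the catalytic subunit Mettl3 in the complex that writes m6A on messenger RNA. Peg10 is expressed from the paternal copy, derives from a retrotransposon of the Ty3/gypsy family, makes Gag-like and longer Gag-Pol-like proteins through a ribosomal frameshift, and is needed for the placenta. Zim1 is a zinc finger gene of the Peg3 imprinted domain and is expressed from the maternal copy in the mouse. The reads do not tell the parental copies apart, so imprinting itself was not measured.

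Summed site counts were 10207383 to 10918559 in the IP libraries and 3438530 to 3637740 in the Input libraries. The labels do not state whether replicates were separate cultures, and the p-values reflect no more than the spread among these libraries. Mettl14 itself had 32 and 22 counts in M14KD Input, against 64 and 44 in SCR Input, which is 51.2% of the SCR level after scaling to library totals. These counts came from 2 sites, and the change was not called by edgeR (log2 fold change -0.96, SE 0.27, adjusted p = 0.261). Sites lay in 13 alpha cell markers, among them the glucagon gene Gcg. None of the 8 beta cell, 4 other endocrine, 4 exocrine or 6 stromal, blood and endothelial markers had a site under its own name. The alpha marker sum was 98483.4 and 98785.8 CPM (counts scaled to a fixed library total) in M14KD Input, against 87512.8 and 85219.7 CPM in SCR Input, and its part in the results below was not tested.

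Peg10 sites lay between positions 4754389 and 4759595 of chromosome 6, a stretch of 5206 bases. The first site was 7084 bases from the lower-coordinate end of the gene span, and nothing before it was listed. With sites less than 100 bases apart joined, the 61 sites formed 13 groups of up to 9 sites. Neighbouring sites may count the same reads, so sites of a group are not independent, and a sum over sites may hold a read more than once. No Peg10 or Zim1 site lay in the span of another gene.

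The IP profile of Peg10 was steep and the Input profile was shallow. The highest of the 61 sites exceeded the lowest 49.3-fold and 33.2-fold in the M14KD IP libraries and 33.1-fold and 35.5-fold in the SCR IP libraries. In Input the same ratio was 2.45 and 3.38 in M14KD libraries and 3.13 and 3.35 in SCR libraries. Across the 61 sites, mean log2 CPM in IP and in Input correlated at r = 0.33 in M14KD and r = 0.28 in SCR. Between M14KD and SCR the correlation was r = 0.99 in IP and r = 0.91 in Input. These are descriptions over sites that share libraries and partly reads.

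**Figure D1:**
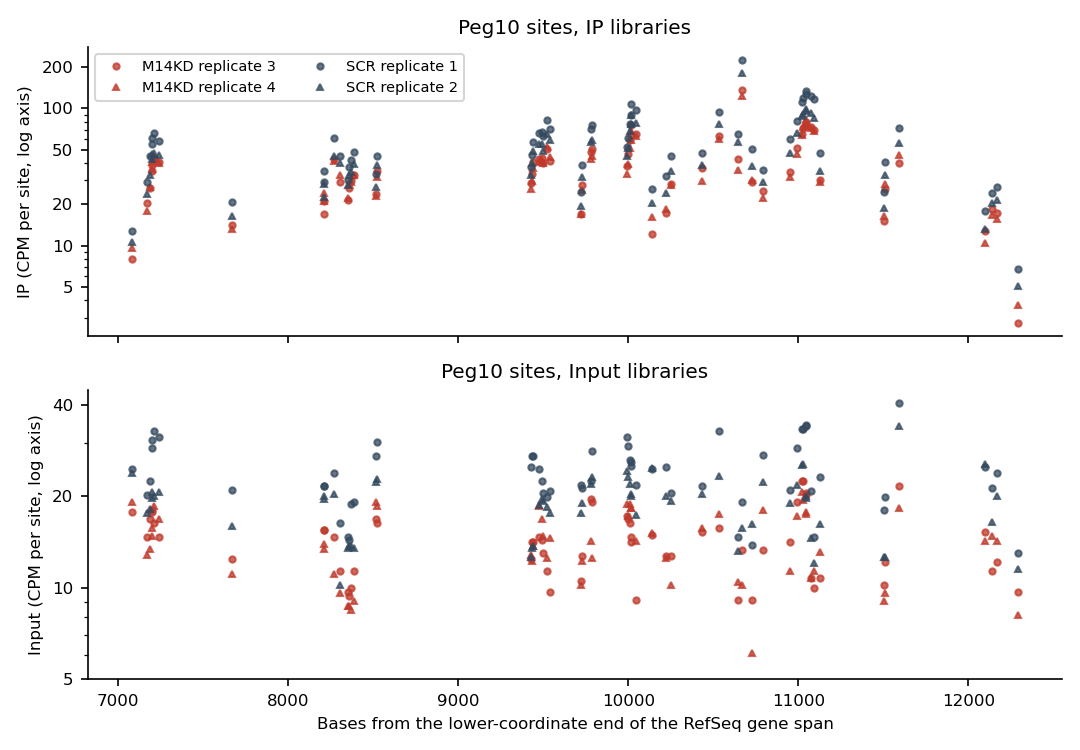
Scaled counts (CPM, log axis) at each of the 61 Peg10 sites against the distance in bases from the lower-coordinate end of the gene span, in IP (top) and Input (bottom). Each point is 1 library (red M14KD replicates 3 and 4, blue SCR replicates 1 and 2). The IP values peak at the site 10669 bases from the end, with means of 129.6 CPM in M14KD and 202.8 CPM in SCR, while Input group means stay between 7.62 and 37.4 CPM.

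The peak of the gene was the site at position 4757974. It had 1429 and 1263 counts in M14KD IP, against 2451 and 1915 in SCR IP. In Input it had only 48 and 35 counts in M14KD, against 69 and 57 in SCR. This 1 site took 5.67% and 5.35% of all Peg10 site counts in M14KD IP and 6.09% and 6.14% in SCR IP, while in Input it took 1.52% and 1.19% in M14KD and 1.30% and 1.36% in SCR. Its IP over Input stood at percentile 99.6 of 33356 tested sites in M14KD and at percentile 99.8 in SCR.

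IP over Input was tested with edgeR's quasi-likelihood test in a model of all 8 libraries, with Benjamini-Hochberg adjustment over all sites. In M14KD 40 Peg10 sites were higher in IP and 5 were lower, where 33.8% and 33.1% of all sites were. In SCR 33 were higher and 11 lower, where 34.0% and 33.4% of all sites were. Of these, 33 sites were higher and 5 lower in both genotypes. The log2 IP over Input of the peak at 4757974 was 2.83 in SCR (SE 0.14, adjusted p = 6.81e-18), and the fold is relative to TMM scaling (trimmed mean of M values), which sets the typical site near 0. Scaled by column totals the split was 55 higher and 2 lower in M14KD, where 58.6% and 16.9% of all sites were called, and 50 and 3 in SCR, where 59.1% and 16.7% were. Scaled on the least enriched 25% of features it was 58 and 1 in each genotype, where 78.9% and 6.38% of all sites were called in M14KD and 79.4% and 6.47% in SCR. Both scalings shift all sites toward IP.

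The ends of the Peg10 stretch lay at the other extreme. The first site, at 4754389, had 85 and 99 counts in M14KD IP, against 64 and 66 in M14KD Input from libraries with fewer counts in all. Its counts in SCR were 140 and 112 in IP, against 89 and 87 in Input, with a log2 IP over Input of -1.76 (SE 0.17). The last site, at 4759595, had the same log2 ratio of -1.76 in SCR. It had 29 and 38 counts in M14KD IP, against 74 and 54 in SCR IP, the lowest level of the gene in the antibody libraries.

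Summed over its sites, Peg10 was enriched by the antibody in both genotypes. IP over Input, as a ratio of CPM, was 2.74 and 2.70 in the M14KD replicates, against 2.52 and 2.56 in the SCR replicates. These do not overlap, as for 17.5% of all genes in that direction. On the TMM scale the log2 IP over Input was 0.76 in M14KD (SE 0.10, adjusted p = 8.52e-06 by edgeR) and 0.65 in SCR (SE 0.10, adjusted p = 3.70e-05). It stood at percentile 78.5 of 6379 genes in M14KD and at percentile 75.4 in SCR, where 35.5% and 35.2% of genes were called higher.

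In the IP libraries Peg10 had 25211 and 23622 summed counts in M14KD, against 40272 and 31182 in SCR. Scaled to library totals, this was 2388.6 and 2314.2 CPM in M14KD, against 3688.4 and 2948.9 CPM in SCR, so that the M14KD mean was 70.8% of the SCR mean. Both M14KD libraries lay below both SCR libraries, as for 26.1% of all genes, and the fitted log2 fold change was -0.48 (SE 0.10). The SCR replicates differed from each other by a ratio of 1.25, with replicate 1 above replicate 2 at 61 of 61 sites, whereas the M14KD replicates differed by 1.03. Without SCR replicate 1 the log2 fold change was -0.31, and without SCR replicate 2 it was -0.64.

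**Figure D2:**
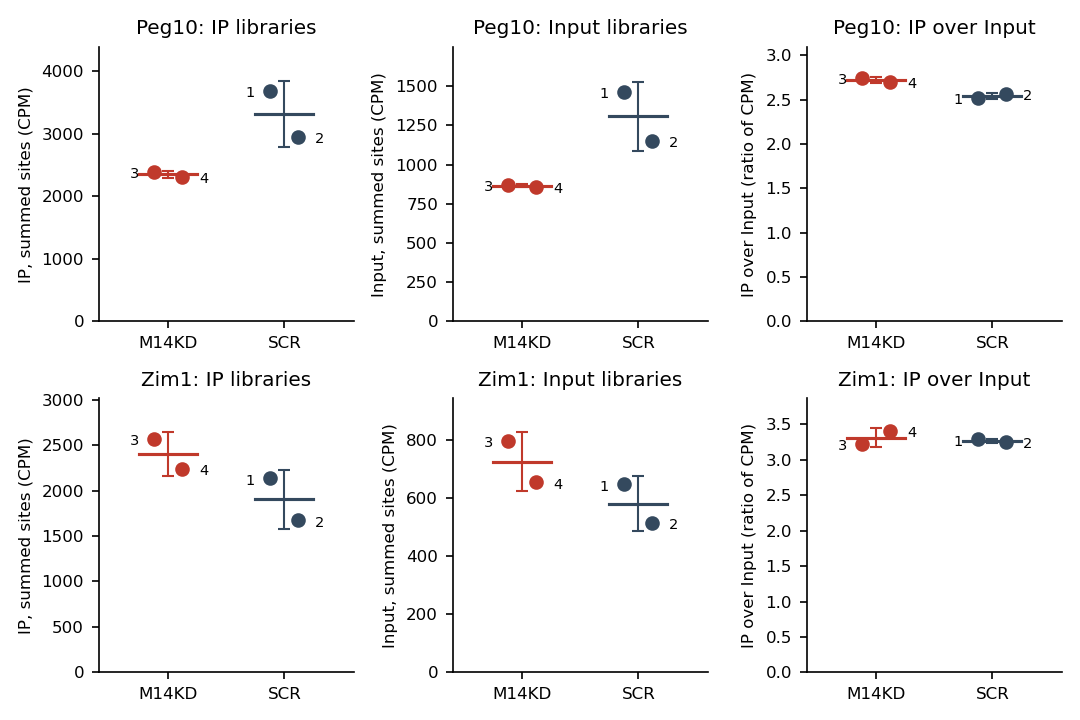
Summed site counts of Peg10 (top row) and Zim1 (bottom row) in CPM, in IP libraries (left), in Input libraries (middle), and as the ratio of IP to Input (right). Points are single libraries with their replicate numbers, bars are the mean and lines the SD (n = 2). Peg10 IP is at a mean of 2351 CPM in M14KD against 3319 CPM in SCR, Zim1 IP is at 2403 CPM in M14KD against 1903 CPM in SCR, and the ratios on the right differ far less.

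The difference had 1 direction at every listed Peg10 site. All 61 sites had a log2 fold change below 0 in IP, with a median of -0.44 and a range of -0.86 to -0.30, beside a median of 0.01 over all sites tested. At 61 of 61 sites both M14KD libraries lay below both SCR libraries, where 25.2% of all tested sites had that order. Of these sites 22 passed the adjusted threshold as lower, where 0.375% of all sites did, and since this contrast chose the gene, nothing is read from that count. All 22 lay between 4756782 and 4758897, in 7 of the 13 groups. The count was 8 without SCR replicate 1 (1.42% of all sites), 51 without SCR replicate 2 (0.392%), 0 without M14KD replicate 3 (0.0%) and 4 without M14KD replicate 4 (0.12%). With 1 site kept per 100 bases it was 1 of 18 (0.135% of all). DESeq2 called 16 of the 38 to which it gave an adjusted p, and 0.788% of all sites with one.

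The 3 Peg10 sites with the lowest p in IP were picked by the contrast that chose the gene, so they lie below the median of -0.44 and are given as values only. The peak at 4757974 averaged 129.6 ± 8.24 CPM in M14KD and 202.8 ± 30.7 CPM in SCR (SD, n = 2), with a log2 fold change of -0.62 (SE 0.10). The site at 4758254 had 364 and 325 counts in M14KD, against 648 and 502 in SCR (-0.66, SE 0.11). The one at 4758325, in the same group, had 691 and 658 counts in M14KD, against 1212 and 923 in SCR (-0.59, SE 0.10). In each of them both M14KD libraries were lower than both SCR libraries.

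The called sites with the most and the least negative fold change lay in 1 group. At 4757442 there were 129 and 164 counts in M14KD IP, against 282 and 218 in SCR IP, a log2 fold change of -0.69. At 4757322 there were 796 and 697 counts in M14KD IP, against 1175 and 944 in SCR IP, a log2 fold change of -0.43. In SCR the log2 IP over Input was 1.37 at 4757322 and -0.80 at 4757442 with TMM, where the value at 4757442 was 0.62 when scaled on the least enriched 25% of features.

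The Input libraries, which measure the RNA without selection by the antibody, ran the same way. Peg10 had 3151 and 2948 summed Input counts in M14KD, against 5294 and 4186 in SCR. In CPM this was 864.6 ± 10.2 in M14KD and 1307.3 ± 221.4 in SCR (SD, n = 2), or 66.1% of the SCR mean. The 2 groups did not overlap, as held for 20.5% of all genes in that direction. These are bulk libraries, so fewer cells with the transcript and less transcript per cell cannot be told apart. That Peg10 was lower in Input was also known before these tests.

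The edgeR log2 fold change of the Peg10 sum in Input was -0.60 (SE 0.10, 95% interval -0.81 to -0.39), with an adjusted p = 0.0914 over 5826 genes, which missed the threshold of 0.05. With DESeq2 the sum passed (-0.59, adjusted p = 5.86e-05), as it did with 1 site kept per 100 bases (-0.65, adjusted p = 0.00231). In edgeR fits that left a group with 1 library, it passed without SCR replicate 1 (-0.42, adjusted p = 0.0229) and without SCR replicate 2 (-0.75, adjusted p = 0.00039). It did not pass without M14KD replicate 3 (-0.60, adjusted p = 0.892) or without M14KD replicate 4 (-0.57, adjusted p = 0.632). The other edgeR settings did not pass either, with adjusted p = 0.0626 to adjusted p = 0.242, the highest with no filter on low counts.

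Site by site, all 61 Input log2 fold changes were below 0, with a median of -0.58 and a range of -0.95 to -0.31, beside 0.0024 over all sites tested, and 58 of 61 were below 0 without SCR replicate 1. At 55 sites both M14KD libraries lay below both SCR libraries, where 20.2% of all tested sites did. Only 1 site passed the adjusted threshold, where 0.0232% of all sites were called lower, while 55 had an unadjusted p under 0.05 (4.14% of all sites in that direction). The called site, at 4758897, was also the one with the most Input counts in SCR. It fell to 78 and 63 counts in M14KD Input, against 147 and 124 in SCR Input (log2 fold change -0.88, SE 0.17, adjusted p = 0.0350 by edgeR). It was not called with no filter on low counts, without SCR replicate 1, without M14KD replicate 3 or without M14KD replicate 4.

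That site had a log2 IP over Input of 0.06 in SCR (SE 0.14), beside a median of 0.06 over all sites. It had 423 and 466 counts in M14KD IP, against 784 and 587 in SCR IP, a log2 fold change of -0.55. At the peak of the gene, 4757974, the Input log2 fold change was -0.54 (SE 0.22), close to the -0.62 (SE 0.10) of IP.

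**Figure D3:**
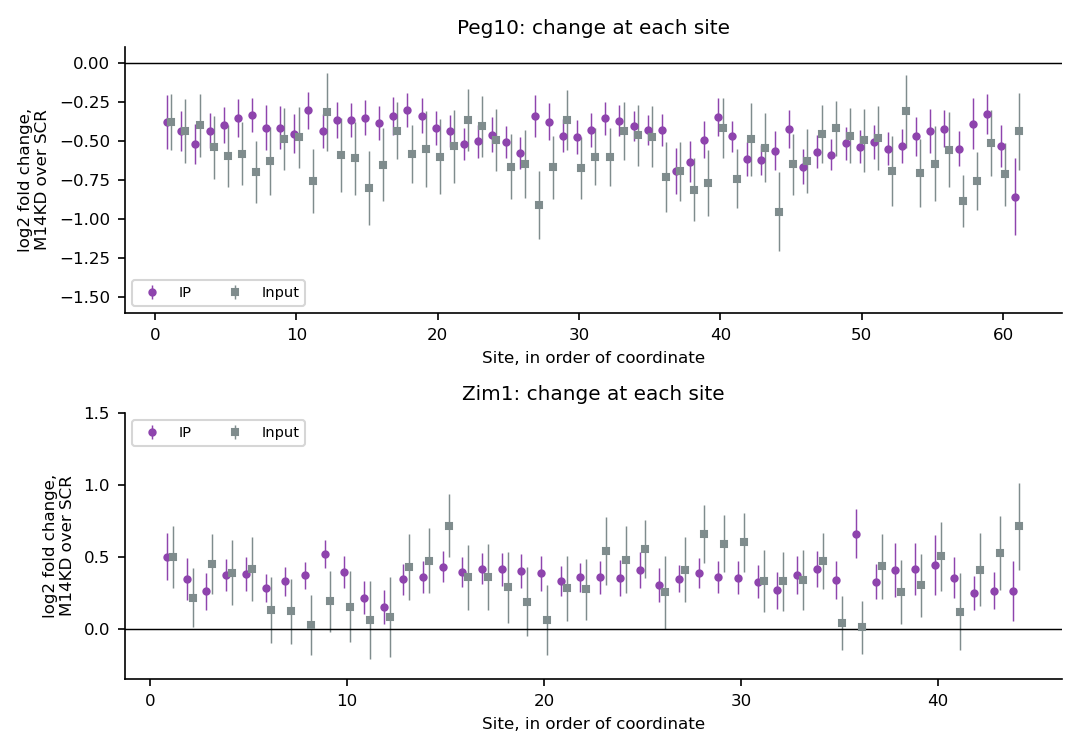
Log2 fold change, M14KD over SCR, at each site in order of coordinate, for Peg10 (top, 61 sites) and Zim1 (bottom, 44 sites). Circles are IP, squares are Input, and lines are ± 1 SE. All Peg10 values lie below 0 and all Zim1 values above 0 with TMM scaling, although 1 Zim1 Input value turns below 0 with libraries scaled by column totals.

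Whether antibody enrichment differed between the genotypes was asked with the interaction of library kind and genotype. For the Peg10 sum this log2 difference in IP over Input, M14KD over SCR, was 0.10 (SE 0.15, 95% interval -0.21 to 0.41, adjusted p = 0.999 by edgeR). With the replicate number as a block it was 0.10 (SE 0.05, 95% interval -0.01 to 0.22, adjusted p = 0.776). The IP libraries also entered the choice of the gene, so this measure is not independent of it. By site, 43 of 61 values lay above 0 and 18 below, with a median of 0.13 beside -0.002 over all sites. None passed by edgeR, where 0.0% of all sites were called, 1 had an unadjusted p under 0.05 (3.72% of all sites did), and DESeq2 called 0. Both intervals include 0, and the one with the block rests on pairing IP and Input libraries by their replicate numbers.

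Across the 61 Peg10 sites the log2 fold changes in IP and in Input correlated at r = -0.04. Their SD over sites was 0.11 in IP and 0.15 in Input. Sites of the gene share libraries and partly reads, so this spread was not set against the error of a site. The IP log2 fold change correlated with position along the span at r = -0.47, but the group medians did not fall steadily. The median was -0.40 in the group from 4754389, -0.59 in the group from 4757949 and -0.39 in the group from 4759405. The last group was the single site at 4759595, at -0.86 (SE 0.25). This contrast chose the gene, so nothing is read from the correlation.

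Zim1 ran the other way, with more counts in M14KD. RefSeq places Zim1 on the minus strand, so the lower coordinate is its 3′ end. Its sites lay between 6675018 and 6685701 of chromosome 7, over 10683 bases, in 11 groups, of which 5 were single sites. One group at 6676124 to 6676630 held 22 of the 44 sites, about 1681 bases from the 3′ end of the span at its nearest.

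That group held most of the Zim1 sites enriched by the antibody. All 22 of its sites were higher in IP than in Input in SCR by edgeR, as were 7 of the 8 sites in the next group at 6676847 to 6676994. Over the gene 29 sites were higher and 7 lower in M14KD, and 32 were higher and 6 lower in SCR, beside the shares of all sites given for Peg10. Of these, 29 were higher and 6 lower in both genotypes. Scaled by column totals the split was 36 and 3 in M14KD and in SCR, and scaled on the least enriched 25% of features it was 41 and 0 in M14KD and 41 and 1 in SCR, beside the shares of all sites given for Peg10 under the same scalings.

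The site with the strongest enrichment was 6676450, with 1176 and 916 counts in M14KD IP, against 38 and 44 in M14KD Input. Its counts in SCR were 951 and 702 in IP, against 32 and 38 in Input, a log2 IP over Input of 2.28 (SE 0.19, adjusted p = 2.50e-12 by edgeR). The weakest was 6677918, a single site further from the 3′ end, at -2.21 in SCR (SE 0.18). It had 123 and 110 counts in M14KD IP, against 68 and 75 in M14KD Input, and 83 and 72 counts in SCR IP, against 70 and 78 in SCR Input.

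**Figure D4:**
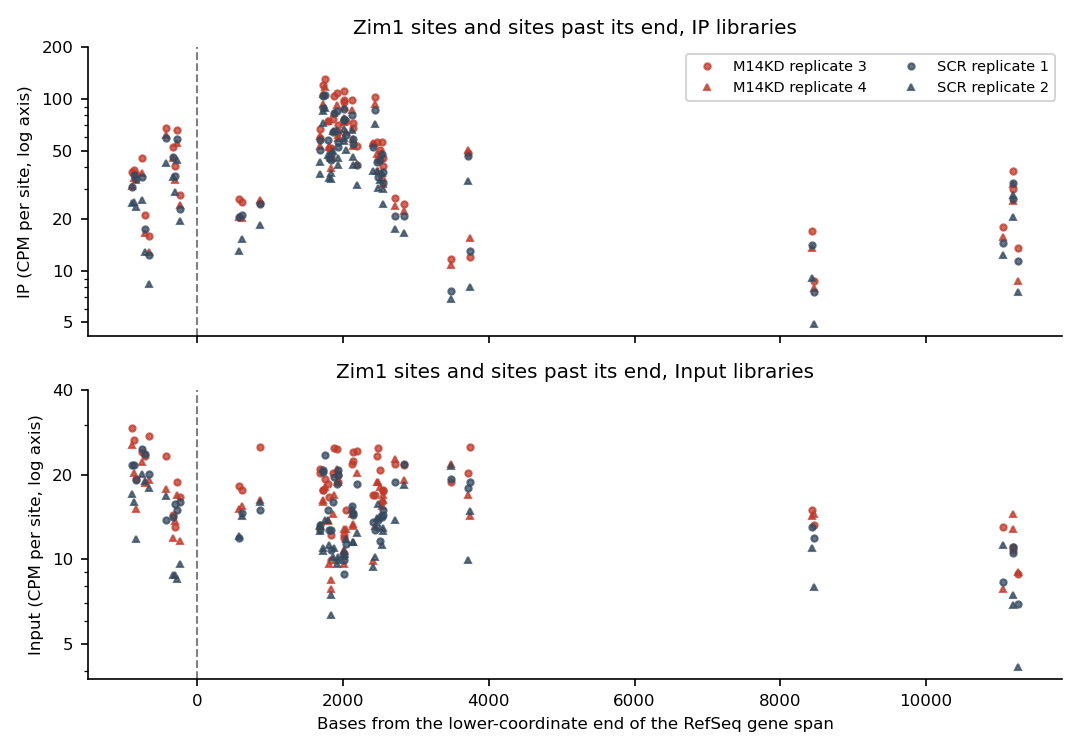
Scaled counts (CPM, log axis) at the 44 Zim1 sites and at 11 sites past the 3′ end of the gene, against the distance in bases from the lower-coordinate end of the span (dashed line at 0), in IP (top) and Input (bottom). Each point is 1 library (red M14KD replicates 3 and 4, blue SCR replicates 1 and 2). IP peaks in the group that starts 1681 bases from the end, where the highest site averages 123.6 CPM in M14KD and 97.0 CPM in SCR.

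As a sum, Zim1 was also enriched by the antibody in both genotypes. The ratio of IP to Input CPM was 3.22 and 3.41 in M14KD, against 3.29 and 3.25 in SCR, and these overlap. Each of these ratios was above those of Peg10, a difference between genes that was not tested. The log2 IP over Input on the TMM scale was 1.04 in M14KD (SE 0.12, adjusted p = 1.79e-06 by edgeR) and 1.02 in SCR (SE 0.12, adjusted p = 2.35e-06), at percentile 87.3 of genes in each. The interaction was 0.02 (SE 0.17, 95% interval -0.35 to 0.39, adjusted p = 0.999), and with the replicate block it was 0.02 (SE 0.06, 95% interval -0.11 to 0.15, adjusted p = 0.963). By site it was above 0 at 22 and below 0 at 22, with 0 called by edgeR or DESeq2 and 1 at an unadjusted edgeR p under 0.05, beside the 3.72% of all sites.

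In IP Zim1 had 27140 and 22807 summed counts in M14KD, against 23288 and 17690 in SCR. This was 2571.4 and 2234.4 CPM in M14KD, against 2132.9 and 1673.0 CPM in SCR, or 126.3% of the SCR mean. The groups did not overlap, as held for 19.8% of all genes in that direction, and the log2 fold change was 0.36 (SE 0.11). The lower M14KD library and the higher SCR library were close, and SCR replicate 1 exceeded SCR replicate 2 by a ratio of 1.27. The log2 fold change was 0.54 without SCR replicate 1 and 0.19 without SCR replicate 2.

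Every one of the 44 Zim1 sites had an IP log2 fold change above 0, with a median of 0.36 and a range of 0.15 to 0.66, although 1 of them turned below 0 without M14KD replicate 3 and 2 without SCR replicate 2. Both M14KD libraries lay above both SCR libraries at 32 sites, where 18.7% of all tested sites had that order, and at 12 the groups overlapped. One site was called higher, where 0.255% of all sites were, and again nothing is read from it. It was 6676234, with 786 and 754 counts in M14KD IP, against 630 and 500 in SCR IP (0.52, SE 0.10). Without SCR replicate 1 the count was 39, where 2.83% of all sites were called higher, and without any other single replicate it was 0. The brightest site, 6676197, had 1376 and 1192 counts in M14KD IP, against 1155 and 933 in SCR IP (0.37).

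In Input Zim1 had 2886 and 2255 summed counts in M14KD, against 2344 and 1872 in SCR. Scaled, this was 798.4 and 655.8 CPM in M14KD, against 648.1 and 514.6 CPM in SCR, or 125.1% of the SCR mean, and the groups did not overlap, where 19.9% of all genes had that order. The edgeR log2 fold change was 0.32 (SE 0.11, 95% interval 0.08 to 0.57), with an adjusted p = 0.352, so it did not pass. It was 0.18 without SCR replicate 2 and 0.18 without M14KD replicate 3, and it was 0.47 without M14KD replicate 4. Without SCR replicate 1 it was 0.49, and whether it passed depended on the library left out.

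All 44 Input values of Zim1 sites were above 0, with a median of 0.35 and a range of 0.01 to 0.72, but 1 turned below 0 with column totals and 12 did so without M14KD replicate 3. The groups were apart in that direction at 22 sites, where 18.2% of all tested sites were. None passed by edgeR, where 0.0697% of all sites were called higher, with 14 at an unadjusted p under 0.05 (4.55% of all sites in that direction). DESeq2 gave no adjusted p for these sites and 2 unadjusted p values under 0.05, where 1.39% of all sites had one. At 6676362, the site with the largest Input value, there were 89 and 72 counts in M14KD, against 67 and 35 in SCR (0.72, SE 0.22, adjusted p = 0.315). At the bright site 6676197 the Input counts were 70 and 62 in M14KD, against 85 and 50 in SCR, which overlap.

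A further 11 sites lay 237 to 893 bases past the 3′ end of Zim1, at 6673551 to 6674207, in no RefSeq gene span. Their nearest neighbours inside the gene lay 575 bases within it. Summed, they had 417.0 ± 44.6 CPM in M14KD IP and 339.0 ± 69.3 CPM in SCR IP, and 214.4 ± 30.5 CPM in M14KD Input and 179.8 ± 36.2 CPM in SCR Input (SD, n = 2). In both kinds of library the groups overlapped, with M14KD replicate 4 below SCR replicate 1. These had 385.4 and 388.0 CPM in IP and 192.8 and 205.4 CPM in Input. Site by site, the IP log2 fold change was above 0 at 11 of 11, with a median of 0.30, and none was called. Whether these reads belong to a longer Zim1 transcript was not tested.

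The other imprinted genes with sites lay on both sides of 0. The list held 85 genes without Peg10 and Zim1, and 22 of them had sites. In Input 9 of these were above 0 and 13 below, with a median of -0.05 beside -0.0027 over all genes. In IP 13 were above and 9 below, with a median of 0.04 beside 0.01. By edgeR none was called in either, as for 0.0% of all genes. At an unadjusted edgeR p under 0.05 there was 1 in Input, beside 593 of all 5826 genes, where 5.36% were lower. In IP there were 0, beside 900 of all 6381 genes. DESeq2 called 0 of those to which it gave an adjusted p. The 1 in Input was Grb10, an adaptor protein that restrains insulin and growth factor signalling (-0.28, SE 0.08).

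The neighbours of each gene in its imprinted domain give the closest comparison. In the Peg10 domain Ppp1r9a, an actin-binding scaffold, had 16 sites and log2 fold changes of 0.04 in both IP and Input. Asb4, which holds ankyrin repeats, had 9 sites (-0.09 in IP, -0.08 in Input), and Casd1, a sialic acid acetyltransferase, had 7 (0.05 in IP, 0.11 in Input). Sgce, which shares a promoter region with Peg10, had no site under its own name. In the Peg3 domain sites were named for Zim1 alone, and Peg3, Usp29, Zim2 and Zim3 had none under their own names. A site in the spans of several coding genes stayed unnamed, and whether any such site lay in these genes was not tested.

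Among other imprinted genes with many sites, Zdbf2 had 47 (0.13 in IP, -0.01 in Input), Trappc9, a trafficking complex subunit, had 39 (-0.14 in IP, -0.17 in Input) and Gnas, the stimulatory G protein subunit, had 26 (0.03 in both). The retrotransposon-derived list had 5 of 23 genes with sites. Apart from Peg10 these were Rtl6 with 6 sites (-0.27 in IP, -0.22 in Input) and the near-identical copies Rtl8a, Rtl8b and Rtl8c with 2, 3 and 1, whose counts are uncertain. In that order the log2 fold changes of these copies were -0.07, 0.07 and 0.08 in IP and 0.15, 0.25 and 0.24 in Input.

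**Figure D5:**
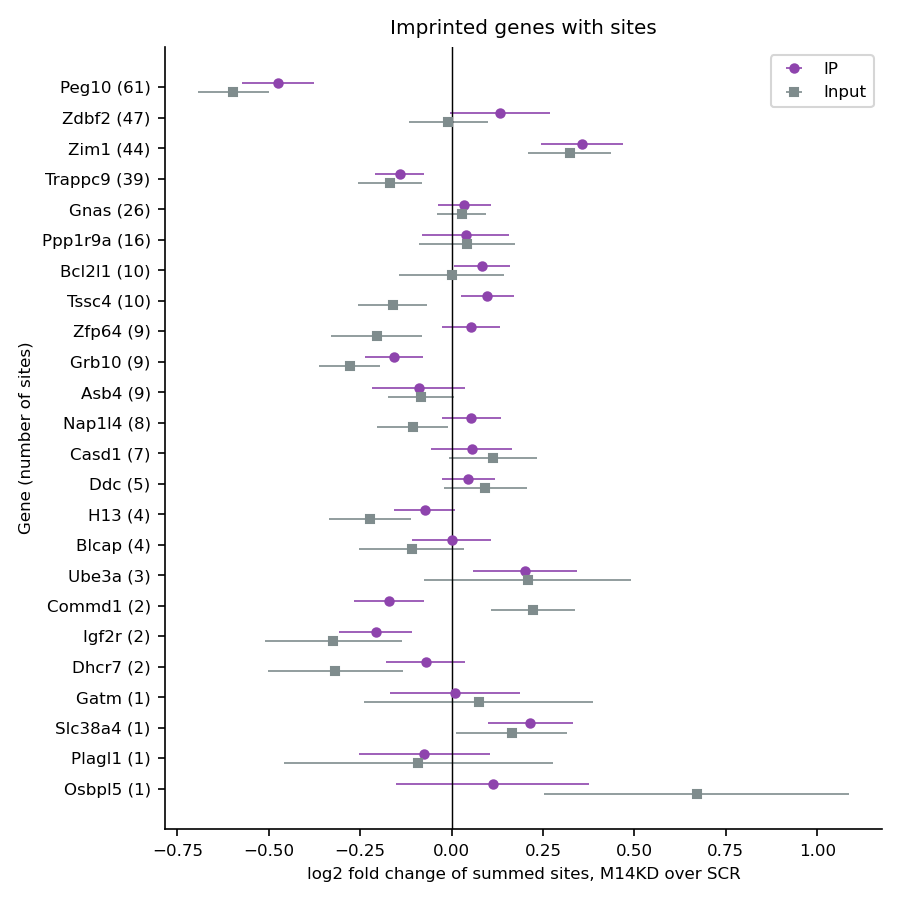
Log2 fold change of summed site counts, M14KD over SCR, in IP (circles) and Input (squares) for the 24 imprinted genes with sites, ordered by number of sites (in brackets), with lines of ± 1 SE. Peg10 lies at -0.48 in IP and -0.60 in Input, and Zim1 at 0.36 and 0.32, while the 22 others lie on both sides of 0, with the widest SE at genes of few sites such as Osbpl5.

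The 8 libraries were also searched for genes with the most similar pattern, as Pearson correlation of log2 CPM among 2420 genes with at least 5 sites and a mean of at least 100 counts. Peg10 was closest to the zinc finger gene Zfp704 (r = 0.977), the growth arrest gene Gadd45a (r = 0.97) and the chromatin regulator Ankrd11 (r = 0.953). Zim1 was closest to Ralgps2, an activator of Ral, to Rasa1, which turns Ras off, and to Plk4, the kinase of centriole duplication (r = 0.997 for each). Peg10 and Zim1 themselves correlated at r = 0.596. The step between IP and Input libraries enters all of these values.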

How the data were processed

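Read counts per site were deposited in 1 table with 8 columns, 1 per library, per the file headers. They are whole numbers that are not normalized. UMI-tools, cutadapt and STAR with the mm10 build are listed per the submitters' processing notes. How sites were called, filtered and counted, and with which versions, is not given in the sources used here, and it is unknown whether a count is a unique molecule. The table had 0 unused columns.

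Of 33774 sites, 33724 were 1 base long, and positions are printed as the end coordinate. A site took the name of a RefSeq gene when it lay in 1 protein-coding span. In no protein-coding span, it took the name of a noncoding gene when it lay in only 1. Together these were 31928 sites (94.5%). Strand and exons were not used, since no genome came with the tables. No sequence is therefore shown, and sites were not placed in exons, introns or untranslated regions.

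Counts were fitted with edgeR 4.0.16 in R 4.3.3 (filterByExpr, TMM scaling, quasi-likelihood F-test) over all sites, and over sums of each gene's sites, and p-values were adjusted by Benjamini and Hochberg's method at 0.05. All 61 and 44 sites passed the filter in every contrast. M14KD was set against SCR within the 4 IP and within the 4 Input libraries. IP over Input in each genotype and the interaction came from 1 model of 8 libraries. A standard error is the size of the log2 fold change divided by the root of its F value. CPM are counts scaled to a library's summed site counts. The fits were tested on simulated data, and the outcome is not given here.

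IP and Input libraries share replicate numbers. Over 6379 genes, deviations from the group means correlated between same-numbered IP and Input libraries at 0.175 in M14KD and 0.245 in SCR. Each was over 0.1, so the numbers were taken to pair the libraries, and a fit with the number as a block was added. With 2 libraries per group each genotype gives only 1 such value, and swapped numbers would reverse its sign. The sign of these values cannot establish the pairing. The pairing comes from the titles.

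Other alternatives were DESeq2 1.42.0, DESeq2 size factors, column totals, TMM on the least enriched 25% of features, all 8 libraries in 1 model, no filter, a minimum mean count of 20, 1 site per 100 bases, and each replicate left out. Named sites were the highest IP and Input sites in SCR, the first and last, those called in Input or the interaction, the extremes of IP over Input in SCR, and in IP the 3 with the lowest p and the extremes among called sites. Other sites named by an extreme were chosen after their values were seen. Genes, lists and tests were chosen with earlier results of these data known. The result of some listed marker genes is not reported here.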

Additional observations from a re-analysis of the deposited data

How the results depend on the processing

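With 2 libraries per group, 1 library can decide a call. Leaving out each replicate gave log2 fold changes for Peg10 of -0.75 to -0.42 in Input and -0.64 to -0.31 in IP, and for Zim1 of 0.18 to 0.49 in Input and 0.19 to 0.54 in IP. The Zim1 interaction ranged from -0.036 to 0.077 and changed sign. The Peg10 interaction, 0.10 to 0.11, did not. A group left with 1 library is assumed to vary like the others. Called sites without 1 replicate ranged from 0 to 1 (Peg10, lower in Input), 0 to 51 (Peg10, lower in IP), 0 to 1 (Zim1, higher in Input) and 0 to 39 (Zim1, higher in IP). For IP over Input, Peg10 sites called lower ranged from 3 to 5 in M14KD and 7 to 9 in SCR, and Zim1 sites called lower from 4 to 7 in M14KD.

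The Peg10 sum in Input passed with DESeq2 (-0.59), which gave no adjusted p to 4518 of 5826 genes. It passed with 1 site per 100 bases (-0.65), and not with edgeR on all sites and libraries. In IP, the contrast that chose the gene, DESeq2 gave -0.48, and no call is read there. With 1 site per 100 bases, the sites called lower in IP for Peg10 were 1 of 18, and those called higher in IP for Zim1 were 0 of 14. Peg10 IP over Input then had 11 higher and 3 lower of 18 sites in M14KD and 9 and 5 in SCR. Zim1 had 7 of 14 higher in each genotype, with 5 lower in M14KD and 4 in SCR. The log2 IP over Input of the Zim1 sum was then 0.77 in M14KD and 0.69 in SCR, against 1.04 and 1.02 with all sites. For the Peg10 sum it was 0.77 and 0.61, against 0.76 and 0.65. Fewer sites were tested, and the cause of the lower Zim1 values was not tested. All 8 libraries in 1 model gave 2 Zim1 sites higher in IP. Peg10 sites lower in Input were 0 with no filter and 2 with scaling on the 25% lowest IP over Input.

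That scaling moved the median log2 IP over Input of all genes by 1.33 in M14KD and 1.32 in SCR, and column totals moved it by 0.71 and 0.72. Peg10 sites called higher in SCR were 50 with column totals and 58 with the lowest 25%. Sites called lower were 3 and 1 for Peg10 in SCR, 2 and 1 for Peg10 in M14KD, 3 and 1 for Zim1 in SCR, and 3 and 0 for Zim1 in M14KD. Both genes' sums stayed above 0.

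Of 501 values of the 15 named sites under alternatives, 450 kept direction and call, 12 gained and 25 lost the call, and 14 changed sign. Scaling on the lowest 25% turned Peg10 4757442 IP over Input to 0.62, Zim1 6675018 IP over Input (-0.23) to 1.19, and Zim1 6677918 Input to -0.0036. Column totals turned the last 2 to 0.49 and -0.0086. Leaving out 1 replicate gave ranges of -0.026 to 0.12 for Peg10 4758897 IP over Input and -0.62 to 0.089 for Zim1 6675018 IP over Input. In Zim1 Input they were -0.31 to 0.46 for 6676197, -0.090 to 0.10 for 6677918 and -0.063 to 0.40 for 6676234, and in IP -0.091 to 0.61 for 6685701. The cause was not tested.

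The replicate block changed no call on the sums, with IP over Input of 0.76 in M14KD and 0.65 in SCR for Peg10 and 1.04 and 1.02 for Zim1, and an interaction of 0.10 for Peg10 and 0.02 for Zim1. DESeq2 gave no adjusted p for 21 site values or for Input sites of either gene, and these were left out. Input depth limits site values, with a median SE over all sites of 0.25 in Input and 0.30 in the interaction. The median SE was 0.20 and 0.24 for Peg10 sites and 0.23 and 0.27 for Zim1 sites. Scalings use site counts alone, so a loss equal at all sites cannot be seen.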
